A study of Mus musculus with 20 samples.

Results

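Expression of 10 genes of mitochondrial protein quality control and their neighbours was followed in mouse retina at a young and an old age, with and without the cysteine precursor NACET. The list was Clpb, Bag6, Htra1, Htra2, Lonp1, Clpp, Afg3l2, Hspd1, Hspe1 and Hspa9, 10 of the 35006 genes counted, and was taken by name. Clpb, Bag6 and Htra1 were selected on these same libraries by the study, as genes lower with age and higher again under NACET in old mice, so their values are a description and carry no test in any comparison, since each shares libraries with that selection. The other 7 genes were chosen by function.

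The 20 libraries were polyA RNA sequencing of retinas of C57BL/6J mice, an inbred strain, each from a separate mouse. Controls numbered 4 at each age and NACET mice 6 at each age. NACET (N-acetyl-L-cysteine ethyl ester) is a cell-permeable precursor of cysteine and the treated mice drank it with their water for 5 days, at a daily dose of 50 mg/kg. Young controls were 119 days old and old controls 668 days, while the titles gave 129 days for 4 and 119 days for 2 of the young treated mice, and 668, 581 and 574 days for 2 old treated mice each. Young NACET replicate 6 carried 119 days in its title but 129 days in its batch tag. NACET and age cohort were thus partly confounded. All old mice were labelled male, and each young group held 2 labelled females, so age and labelled sex were also partly confounded. Totals were 17.7 to 31.1 M gene counts per library (M, 1e+06 counts), and values are given as CPM, counts scaled to a library total of 1e+06. Summed over 7 rod genes, the libraries held 61914 to 94368 CPM, and none of these genes was at 0 in any library. In the libraries labelled old control, replicate 4 was labelled male and held 2473 CPM of Xist, a transcript of female cells, against at most 0.598 CPM in the other 15 libraries labelled male, and replicate 2 held 171 CPM of the corneal keratin Krt5 against 2.83 to 20.8 CPM in the other old controls. Calls among the 7 genes chosen by function are therefore also given without both. So are log2 changes of Clpb, Bag6 and Htra1 and of some of the 7. Other results that rest on old controls include both libraries.

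Most mitochondrial proteins are made in the cytosol, cross the mitochondrial membranes unfolded and must be folded and, when damaged, cleared inside the organelle. Mortalin (Hspa9) draws proteins into the matrix and folds them, and the chaperonin Hspd1 (HSP60) with its lid Hspe1 (HSP10) completes folding in a closed chamber. Misfolded proteins are degraded by the matrix proteases LONP1 and CLPP, by AFG3L2 in the inner membrane and by HTRA2 in the intermembrane space, where the disaggregase CLPB also acts. BAG6 is a cytosolic and nuclear chaperone that shields hydrophobic protein segments, and HTRA1 is a mainly secreted serine protease related to HTRA2. The retina is rich in mitochondria, above all in the inner segments of photoreceptors.

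All 10 genes were detected in every library, with 289 to 6778 counts, and all 10 passed the expression filter. Per kb of the longest coding transcript, Bag6 and Hspa9 were highest, at 63.0 ± 4.91 and 59.3 ± 2.74 CPM per kb (SD, n = 20). Clpp (30.3), Lonp1 (28.7), Htra1 (23.4), Hspd1 (23.4), Hspe1 (22.1) and Afg3l2 (19.7 CPM per kb) followed, and Clpb (14.1) and Htra2 (13.7 CPM per kb) were lowest. Along this order the ranges over libraries of neighbouring genes overlapped, except between Hspa9 and Clpp and between Afg3l2 and Clpb. Per kb of all exons of a gene, Hspa9 came first, at 46.0, and Clpb last, at 6.57 CPM per kb. Hspe1 and Hspd1, the lid and the chamber of the chaperonin, were close per kb of the longest coding transcript but not per kb of all exons, at 11.6 and 21.4 CPM per kb. In CPM, without correction for length, Hspe1 was at 0.302 ± 0.0175 times Hspd1 (SD, n = 20), and the group means of this ratio lay between 0.293 and 0.307. Over the 20 libraries the coefficient of variation was largest for Htra1 (19.2%) and smallest for Afg3l2 (3.38%).

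**Figure D1:**
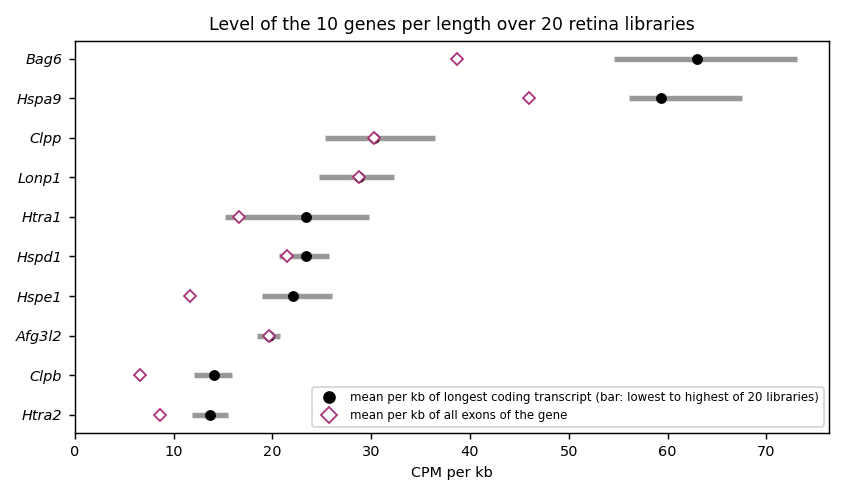
Level of each gene in CPM per kb (x axis). Black points are means over 20 libraries per kb of the longest coding transcript, bars run from the lowest to the highest library, and open diamonds are means per kb of all exons; Bag6 and Hspa9 lie above the other 8 genes on both lengths.

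Promoter windows of 300 bases, from 250 before to 50 after the start, were taken from RefSeq (GRCm38.p6) for 7 of the 10 genes, as 8 windows. Promoters of Htra2, Afg3l2 and Hspa9 were not searched. Hspd1 and Hspe1 lie head to head, and 285 bases of the Hspe1 window and of 1 of the 2 Hspd1 windows are the same DNA read from opposite strands. Those windows were the only ones of the 8 with a heat shock element, the site of HSF1, searched on both strands as GAANNTTCNNGAA or TTCNNGAANNTTC. It began at position -89 from the Hspe1 start, and 0.603% of 32851 promoters held a match. The Hspe1 window (chr1:55087898-55088197, plus strand) is shown because it overlaps the windows of both chaperonin genes, with the 2 overlapping matches in capitals.
Hspe1: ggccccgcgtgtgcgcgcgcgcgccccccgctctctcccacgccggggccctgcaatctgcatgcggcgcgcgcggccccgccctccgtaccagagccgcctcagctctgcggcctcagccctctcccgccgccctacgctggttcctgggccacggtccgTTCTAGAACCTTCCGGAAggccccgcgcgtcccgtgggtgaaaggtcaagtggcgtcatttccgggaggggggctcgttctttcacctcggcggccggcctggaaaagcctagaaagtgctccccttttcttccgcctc
The core of the antioxidant response element, the site of NRF2, was searched as TGACNNNGC or GCNNNGTCA and was found in the windows of Htra1 and Lonp1, against 12.4% of all promoters. Both windows are shown with the core in capitals, since Htra1 varied most among the 10 genes and Lonp1 held 2 cores. They lie at chr7:130935953-130936252 (plus strand) and chr17:56626854-56627153 (minus strand).
Htra1: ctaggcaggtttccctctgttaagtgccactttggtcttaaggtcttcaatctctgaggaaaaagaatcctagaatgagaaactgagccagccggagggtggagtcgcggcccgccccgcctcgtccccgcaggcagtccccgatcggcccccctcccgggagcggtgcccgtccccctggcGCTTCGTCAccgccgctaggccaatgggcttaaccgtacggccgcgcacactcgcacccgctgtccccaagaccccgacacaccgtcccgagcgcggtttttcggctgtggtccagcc
Lonp1: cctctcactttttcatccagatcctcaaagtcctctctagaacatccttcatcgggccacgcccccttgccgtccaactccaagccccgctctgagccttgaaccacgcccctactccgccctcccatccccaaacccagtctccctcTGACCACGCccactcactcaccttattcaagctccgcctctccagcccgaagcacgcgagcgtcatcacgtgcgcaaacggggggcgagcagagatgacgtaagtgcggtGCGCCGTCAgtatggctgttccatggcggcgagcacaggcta
A CCAAT box (CCAAT or ATTGG, 37.4% of promoters) was found for Htra1 and for the other Hspd1 window. No window held the CHOP/ATF4 composite (TGATGNAA or TTNCATCA, 3.97% of promoters) or the NRF1 site (0.971%), and those of Clpb, Bag6 and Clpp held none of the motifs searched. A match describes the letters of these windows only.

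The counts of some genes touch their neighbours. On mm9, Hspd1 (chr1:55134679-55145087, minus strand) and Hspe1 (chr1:55144976-55148151, plus strand) share 112 exon bases, which is 4.24% of the exons of Hspd1 and 7.60% of those of Hspe1. Htra2 (chr6:83001260-83005267, minus strand) shares 535 exon bases with Loxl3 and 463 with Aup1 on the opposite strand. Reads were counted without strand, so reads on such bases could not be told apart by strand. Clpb (chr7:108812147-108943974), Bag6 (chr17:35272123-35284265), Htra1 (chr7:138079625-138129174) and Clpp (chr17:57129687-57135794) lie on the plus strand and Lonp1 (chr17:56753724-56766326) on the minus strand, and none of them shares exon bases with another gene.

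Among the genes selected by the study, Clpb was lowest in old control retinas. Young controls held 61.7, 61.8, 64.9 and 68.9 CPM, and old controls 58.9, 56.3, 55.6 and 60.3 CPM. In young NACET mice it ranged from 64.4 to 73.5 CPM (median 67.7), and in old NACET mice from 63.9 to 73.1 CPM (median 67.3). Every old control thus lay below every library of the other groups. Over all genes tested, every old control was below every young control in 1.81% and below every old NACET library in 1.76%. The share against young NACET was not computed. Clpb, Bag6 and Htra1 were selected on these libraries, so nothing is read from such separation for them. The log2 change with age was -0.20 ± 0.058 (SE) in controls and -0.06 ± 0.043 under NACET, and the log2 change with NACET in old mice was 0.22 ± 0.046.

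Bag6 was likewise lowest in old controls and highest in young NACET mice. Values were 228, 239, 249 and 248 CPM in young controls and 222, 218, 208 and 211 CPM in old controls. Young NACET libraries held 240 to 279 CPM (median 260) and old NACET libraries 229 to 256 CPM (median 233). All old controls were below all young controls and below all old NACET libraries, but old NACET remained lower than young NACET in mean (237 against 260 CPM), with overlap. The log2 change of Bag6 was -0.21 ± 0.049 (SE) with age, 0.13 ± 0.045 with NACET in old mice and -0.18 ± 0.048 with age under NACET.

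Htra1, the secreted protease, had the widest relative range of the 10 genes, its highest library being at 1.96 times its lowest. Young controls held 37.8, 48.1, 59.2 and 53.9 CPM, and old controls 35.7, 37.2, 31.0 and 38.9 CPM. Only young control replicate 1 fell within the range of the old controls. Old NACET libraries ranged from 40.5 to 54.1 CPM (median 43.4), all above the old controls, and young NACET libraries from 48.4 to 60.7 CPM (median 56.3). Its log2 change was -0.52 ± 0.12 (SE) with age, 0.35 ± 0.088 with NACET in old mice and -0.33 ± 0.075 with age under NACET. Without old controls 2 and 4 the changes with age and with NACET in old mice were -0.65 and 0.48 for Htra1, -0.24 and 0.26 for Clpb and -0.23 and 0.15 for Bag6. Among libraries labelled male the log2 change with age was -0.31 for Htra1, -0.15 for Clpb and -0.17 for Bag6. That subset held young controls 1 and 2 and all 4 old controls, including replicate 4 with its Xist counts. The 2 young controls labelled female held 59.2 and 53.9 CPM of Htra1. Its relative Htra3, also a secreted protease, was near 1.75 CPM in old controls and 1.44 CPM in young controls (log2 change 0.24 ± 0.20, adjusted p = 0.612, edgeR).

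**Figure D2:**
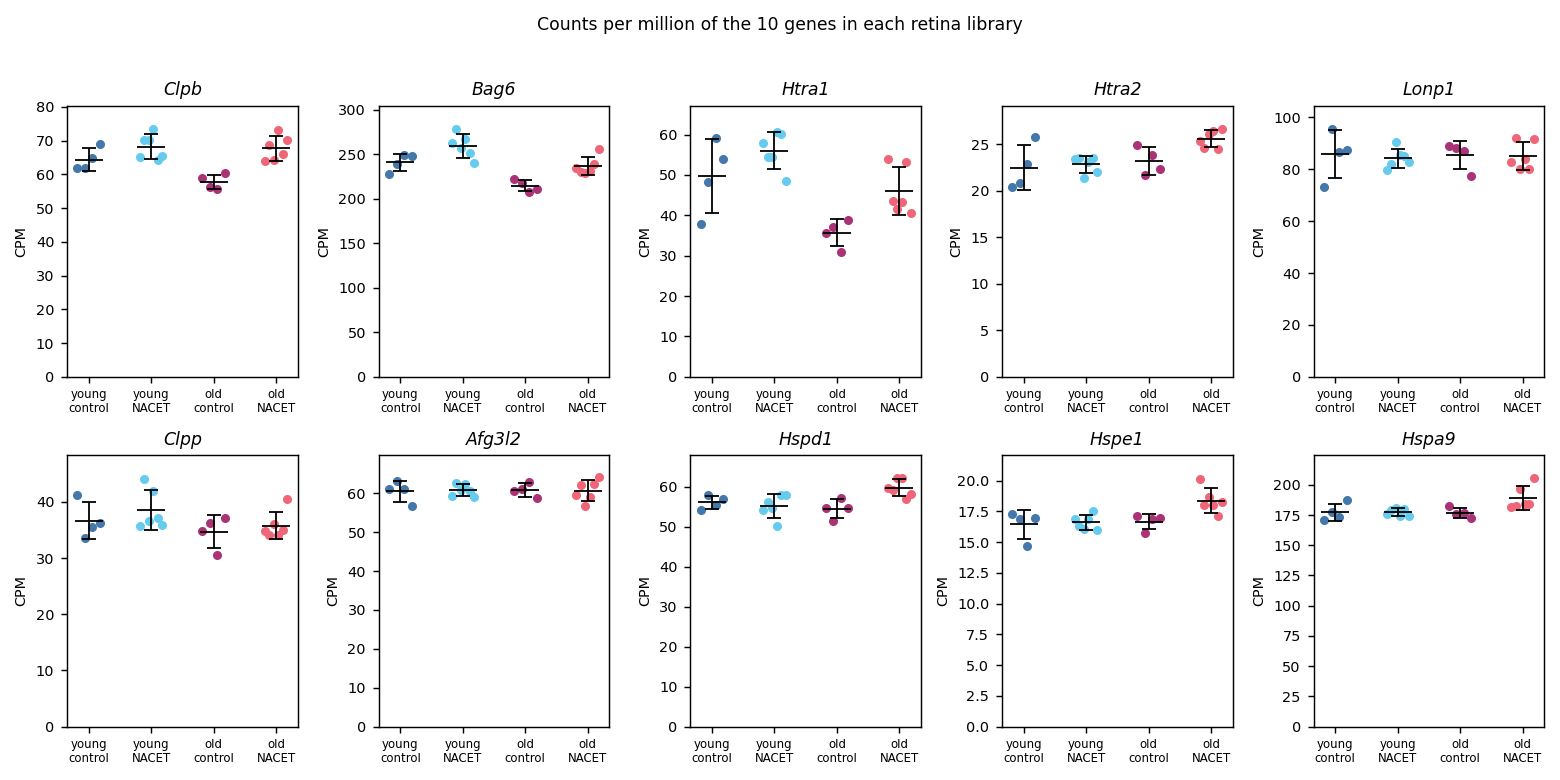
CPM (y axis, from 0) of the 10 genes in each of the 20 libraries, by group. Points are libraries, and the wide bar with whiskers is the mean ± SD of a group (n = 4 for controls, n = 6 for NACET). Old controls have the lowest mean for Clpb, Bag6, Htra1, Clpp, Hspd1 and Hspa9. The old and young controls overlap for all genes except Clpb and Bag6.

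With age in controls, none of the 7 genes chosen by function passed the test (edgeR quasi-likelihood, adjusted p under 0.05 over all 16484 genes tested), where 1.42% of all genes did. None had an unadjusted p under 0.05 either, by edgeR or DESeq2, beside 16.3% of all genes in edgeR, and the smallest was that of Hspd1 (log2 change -0.09 ± 0.054 SE, adjusted p = 0.439). The old and young controls overlapped in all 7 genes. Without old controls 2 and 4 none of the 7 was called either, and the log2 change of Clpp was -0.24 and that of Htra2 0.05. Mortalin (Hspa9) differed by -3.46% (95% interval -9.92% to 3.47%), and the protease Lonp1 by -3.57% (interval -13.2% to 7.15%). For the inner membrane protease Afg3l2 the difference was -2.78% (interval -10.9% to 6.03%), and for the matrix protease Clpp it was -8.45% (interval -20.4% to 5.30%). The log2 change of Clpp, -0.13 as reported, was -0.05 without young control replicate 1 and -0.07 without old control replicate 3, and that of Lonp1, -0.05 as reported, was -0.11 without young control replicate 1 and -0.01 without young control replicate 2. The log2 changes of the 7 genes were below 0 as reported, but over 18 alternatives that of Htra2 turned above 0 in 9, that of Hspe1 in 2 and that of Afg3l2 in 1, all of them under scaling by totals alone and Htra2 also among libraries labelled male (0.11) and without young control replicate 4 (0.06). Under scaling by totals alone the log2 changes of Hspa9, Lonp1, Hspd1 and Clpp were -0.002, -0.006, -0.04 and -0.08. The median over all genes was then 0.04, beside -0.0068 as reported. Both of the genes that did not overlap between old and young controls, Clpb and Bag6, were lower in the old, as were 1.81% of all genes tested; for genes selected on this contrast nothing is read from that count.

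NACET in old mice was accompanied by higher means of the chaperones Hspd1, Hspe1 and Hspa9 and of the protease Htra2, but none of the 7 genes passed the test, against 0.543% of 16562 genes tested. Hspd1 was at 54.8, 51.5, 57.2 and 54.6 CPM in old controls and at 56.9 to 62.2 CPM (median 59.5) in old NACET mice. Of the old NACET libraries, 5 of 6 lay above every old control. The change was 9.05% (95% interval 2.15% to 16.4%, log2 change 0.13 ± 0.044 SE, unadjusted p = 0.0130, adjusted p = 0.209, edgeR).

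For the co-chaperonin Hspe1, old controls held 17.1, 15.7, 16.9 and 16.9 CPM and old NACET mice 17.1 to 20.1 CPM (median 18.1). The groups did not overlap, by a margin of the lowest old NACET value (17.15 CPM) over the highest control (17.08 CPM), and every old NACET library was above every old control in 1.76% of all genes tested. Its change was 9.66% (interval -0.0065% to 20.3%, adjusted p = 0.346, edgeR), and the other genes of the list without overlap in this contrast were the 3 selected by the study. Htra2 was at 25.0, 21.7, 23.8 and 22.4 CPM in old controls and 24.5 to 26.7 CPM (median 25.7) in old NACET mice, with 4 of 6 above every control. The change of Htra2 was 10.1% (interval 1.77% to 19.0%, unadjusted p = 0.0198, adjusted p = 0.243, edgeR). Hspa9 was at 182, 176, 177 and 172 CPM in old controls and 182 to 206 CPM (median 184) in old NACET mice, a change of 6.38% (interval -0.926% to 14.2%, adjusted p = 0.410, edgeR).

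Lonp1 and Afg3l2 stood at 85.2 and 60.7 CPM in old NACET mice against 85.5 and 60.9 CPM in old controls. Their intervals ran from -8.52% to 7.38% and from -6.98% to 5.55%, and that of Clpp from -7.14% to 12.9%. DESeq2 also called none of the 7, with 2 at an unadjusted p under 0.05, as in edgeR, where 14.4% of all genes were under it. Leaving out old control replicate 2 brought that count to 0 in edgeR, as did leaving out replicates 2 and 4 together, where the log2 changes of Hspd1, Hspe1, Htra2 and Hspa9 were 0.11, 0.13, 0.09 and 0.09. Within the 668-day cohort (4 old controls and 2 old NACET mice) they were 0.12, 0.19, 0.10 and 0.03, and those of Clpb, Bag6 and Htra1 were 0.19, 0.11 and 0.44. Old NACET replicate 1, in this cohort, held 9967 CPM summed over 8 lens genes. Over all old mice, leaving it out gave log2 changes of 0.24, 0.14 and 0.30 for Clpb, Bag6 and Htra1 and 0.11 for Hspe1.

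**Figure D3:**
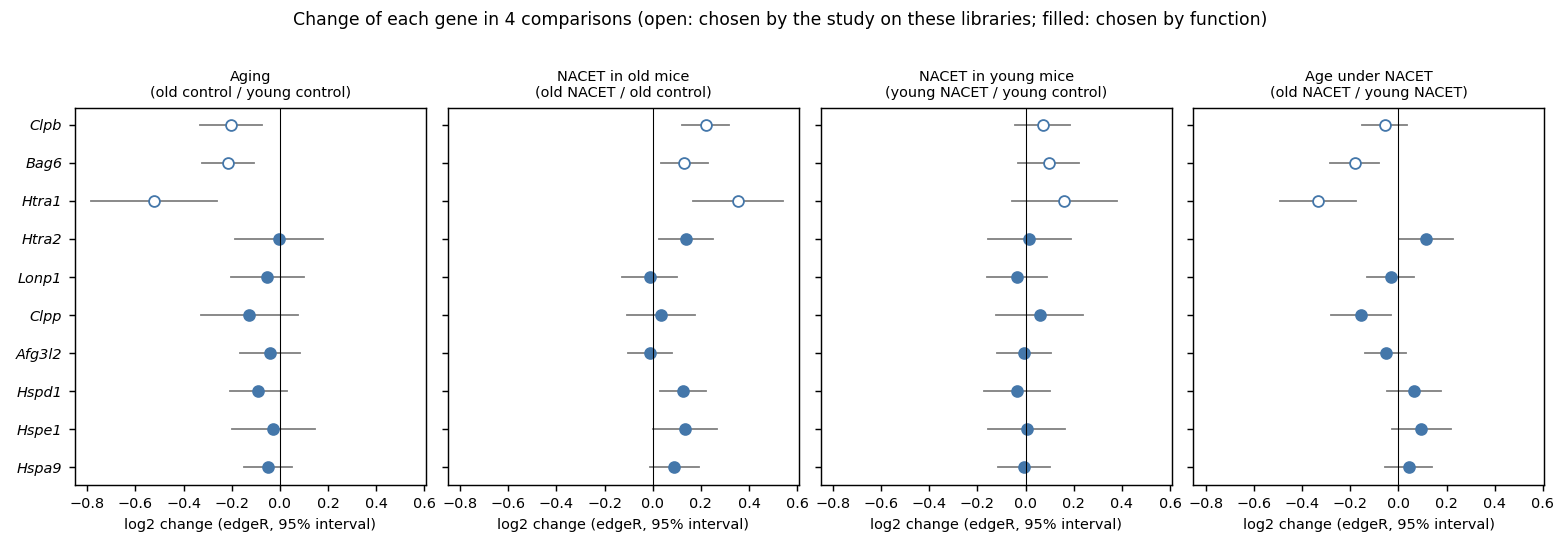
Log2 change of each gene (x axis) in 4 comparisons, from edgeR fits to all genes, with 95% intervals as lines. Open points are the 3 genes selected by the study on these libraries and filled points the 7 chosen by function. In old mice under NACET 5 of the 7 filled points lie above 0, beside 50.8% of all genes tested. In young mice under NACET the filled points lie between -0.04 and 0.06.

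With NACET in young mice, none of the 7 genes chosen by function passed the test or had an unadjusted p under 0.05 in edgeR or DESeq2. Over all 16588 genes, edgeR called 0% and gave an unadjusted p under 0.05 to 4.36%. The 7 lay between log2 -0.04 (Lonp1) and 0.06 (Clpp). The young controls had entered the selection of Clpb, Bag6 and Htra1, partly for high values, so their changes here are a description too. Clpb was 5.06% higher (95% interval -2.94% to 13.7%), Bag6 6.82% higher (interval -2.21% to 16.7%) and Htra1 11.8% higher (interval -3.85% to 30.0%). Single libraries moved these values. The log2 change of Htra1, 0.16, was 0.07 without young control replicate 1 and 0.26 without young control replicate 3. That of Clpb, 0.07, was 0.04 without young control replicate 2 and -0.02 with the batch tag as a covariate. Among libraries of 119 days by title (4 young controls and 2 NACET, 1 of which is the library with a batch tag of 129 days) the log2 changes of Clpb, Bag6 and Htra1 were 0.02, 0.03 and 0.13. Both of these NACET libraries were labelled female, beside young controls of both labelled sexes. In the libraries labelled male the changes were 0.15, 0.17 and 0.39. These were 2 young controls of 119 days and 4 NACET mice of 129 days, so NACET and age cohort were fully confounded there.

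Old and young mice were also compared under NACET, where 4.88% of 16276 genes passed the test and none of the 7 genes did in edgeR or DESeq2, with 2 and 1 of them at an unadjusted p under 0.05, beside 21.1% of all genes in edgeR. Clpp was lower in old mice, at 34.1 to 40.6 CPM (median 34.9) against 35.6 to 44.0 CPM (median 36.9) in young mice (log2 change -0.15 ± 0.059 SE, unadjusted p = 0.0186, adjusted p = 0.144, edgeR), and old NACET replicate 6 was the 1 old library above the young mean. Htra2 was at 24.5 to 26.7 CPM in old against 21.4 to 23.6 CPM in young NACET mice, without overlap (log2 change 0.11 ± 0.053 SE, unadjusted p = 0.0448, adjusted p = 0.224, edgeR). Hspa9 likewise did not overlap, at 182 to 206 CPM in old and 174 to 181 CPM in young NACET mice (log2 change 0.04 ± 0.046, adjusted p = 0.649, edgeR). Every old library was above every young one in 3.29% of all genes tested here. CPM carries no correction for composition, and scaling by totals alone gave log2 changes of 0.17 for Htra2 and 0.09 for Hspa9, with 0.05003 (edgeR) as the smallest adjusted p among the 7 genes.

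The difference of the NACET effect between old and young mice, the interaction, was largest for Hspd1 among the 7 genes (log2 0.16 ± 0.076 SE, unadjusted p = 0.0540, adjusted p = 0.817, edgeR). None of the 7 passed the test, as in 0% of 16993 genes, and none had an unadjusted p under 0.05 in edgeR or DESeq2, beside 6.19% of all genes in edgeR. For Clpb, Bag6 and Htra1 the interaction, a description, was 0.15 ± 0.066, 0.03 ± 0.068 and 0.19 ± 0.14 (log2 ± SE), and among libraries labelled male it was 0.06, -0.04 and -0.04. That subset kept old control replicate 4, and its young mice were 119 days old as controls and 129 days old under NACET.

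Markers of retinal and other cells differed in level between these groups. The 7 rod and 5 cone markers had median log2 changes of -0.18 (0 of 7 above 0) and -0.19 (1 of 5) with age in controls, beside -0.20 for Clpb and -0.21 for Bag6. With NACET in old mice these medians were -0.03 (3 of 7) and -0.08 (2 of 5), beside 0.22 for Clpb and 0.13 for Bag6. The 4 amacrine markers had a median of -0.02 with age in controls (2 of 4 above 0) and of 0.16 with NACET in old mice (4 of 4). The 5 retinal ganglion cell markers had a median log2 change of -0.29 with age in controls (0 of 5 above 0) and of 0.17 with NACET in old mice (5 of 5 above 0), and their sums were 656 to 868 CPM in young controls, 629 to 804 CPM in old controls and 675 to 923 CPM in old NACET mice. The 9 pigment epithelium markers had medians of 0.68 in aging (8 of 9 above 0), -0.79 with NACET in old mice (0 of 9) and 0.68 with NACET in young mice (8 of 9), at sums of 40.1 to 196 CPM in young controls, 97.8 to 201 CPM in young NACET, 105 to 227 CPM in old controls and 36.4 to 126 CPM in old NACET mice. The 8 corneal and conjunctival genes summed to 7.13 to 424 CPM (highest in replicate 2) in old controls and 0.528 to 10.7 CPM in old NACET mice, where 4 of the 8 were at 0 in at least 1 library. They summed to 5.56 to 15.5 CPM (median 12.1) in young controls and to 5.01 to 413 CPM (median 128) in young NACET mice. Of those that passed the filter, 5 of 5 were above 0 in aging (median log2 change 3.74), 0 of 5 with NACET in old mice (-4.61) and 6 of 6 with NACET in young mice (3.75), and Krt5, Krt12 and Dsp passed the test, as lower with NACET in old mice. Of the cone markers Arr3 passed there, as higher. None of the rod, amacrine, ganglion cell or pigment epithelium markers passed the test in aging or with NACET at either age. Between old and young mice under NACET, 1 of 7 rod, 2 of 5 cone and 3 of 9 pigment epithelium markers passed, as lower. So did 5 of 5 corneal and conjunctival markers, and 3 of 6 microglial markers passed as higher. Microglial markers, 6 genes, had a median of 0.43 with age in controls (6 of 6 above 0), at sums of 20.1 to 29.3 CPM in young and 31.1 to 34.4 CPM in old controls. Lens markers, 8 genes, summed to 9967 CPM in old NACET replicate 1. In whole retina fewer cells of a type and less RNA per cell cannot be told apart, and the part of these cells in the values of the 10 genes was not tested.

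The 10 genes did not vary as 1 block across the libraries. Over 45 pairs, Pearson's r of log2 CPM ranged from -0.34 (Lonp1 and Hspe1) to 0.81 (Bag6 and Htra1), with a median of 0.14. These correlations are across 20 libraries that share group, depth and tissue composition, and they are given as a description. The genes of the highest pairs, Bag6 with Htra1 and with Clpb (r = 0.79), were the 3 selected for a shared pattern, and with group means removed Bag6 and Htra1 had an r of 0.26 and Clpb and Htra1 of -0.02. Hspa9 and Htra2 had an r of 0.67, and 0.61 within groups, while Hspd1 and Hspa9 had 0.62 and 0.49 and the head-to-head pair Hspd1 and Hspe1 had 0.56 and 0.43.

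**Figure D4:**
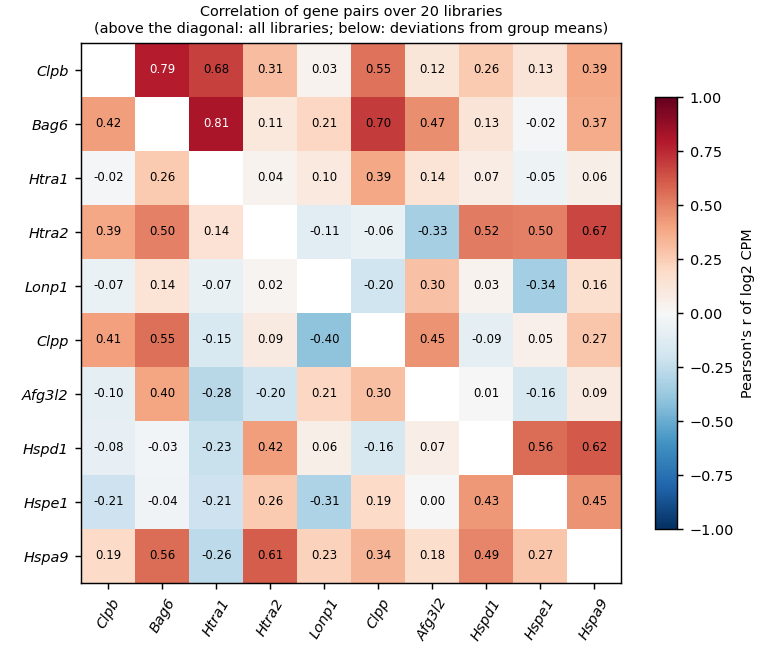
Pearson's r of log2 CPM for each pair of the 10 genes (colour and number). Above the diagonal r is over all 20 libraries, and below it over deviations from the group means; the largest value above the diagonal is that of Bag6 and Htra1 (0.81), which is 0.26 below it.

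Among 16992 genes searched, the profile most like that of Clpb over the 20 libraries was that of Mib2 (r = 0.85), followed by Ap3b2 (0.82) and Lsm11 (0.81). For Bag6 these were Fntb (0.94), Ccdc97 (0.93) and Mfn2 (0.91), of which Mfn2 encodes mitofusin 2, a protein of outer membrane fusion. Htra1 was nearest to Rfng (0.87), Cad (0.86) and Gm6277 (0.85), and Hspd1 to Cltc (0.90), Nedd4 (0.87) and Gm5778 (0.86).

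Of 101 other genes of mitochondrial quality control and of the families of BAG6 and the HtrA proteases, 99 were in the files and 97 passed the filter, and none passed the test with age in controls, with NACET at either age or in the interaction. Their median log2 change was -0.03 with age in controls (38 of 97 above 0) and 0.01 with NACET in old mice (55 of 97), beside -0.0068 and 0.0020 over all genes. Between old and young mice under NACET, 4 of the 97 passed the test (4.12%), a share near the 4.88% of all genes, so nothing about the list is read from this count. The paraplegin gene Spg7, which forms the inner membrane protease with Afg3l2, was lower in old mice, at 129 ± 4.58 against 145 ± 9.07 CPM (SD, n = 6; log2 change -0.23 ± 0.059 SE, adjusted p = 0.0357, edgeR). Tomm40, the pore of the outer membrane import complex, was at 39.1 ± 3.03 against 44.9 ± 4.39 CPM (log2 change -0.25, adjusted p = 0.0355, edgeR), and Mfn2 at 195 ± 8.08 against 212 ± 9.45 CPM (log2 change -0.17, adjusted p = 0.0368, edgeR). The parkin gene Park2, a ubiquitin ligase of mitophagy, was higher, at 4.12 ± 0.899 against 2.69 ± 0.425 CPM (log2 change 0.56, adjusted p = 0.0372, edgeR). Each was called in only some of the 21 alternatives (Spg7 and Park2 in 13, Tomm40 in 12, Mfn2 in 10), always with the same sign.

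The genes nearest to the test in old mice under NACET were Phb, a prohibitin of the inner membrane scaffold (15.0 ± 0.890 against 12.8 ± 0.856 CPM, log2 change 0.22 ± 0.068 SE, adjusted p = 0.148, edgeR), and Sqstm1, the autophagy receptor p62 (228 ± 13.9 against 204 ± 14.1 CPM, log2 change 0.15, adjusted p = 0.215, edgeR). Trap1, a matrix HSP90, was at 72.2 ± 4.83 against 65.9 ± 1.21 CPM (log2 change 0.12, adjusted p = 0.300, edgeR), and Chchd4, an import factor of the intermembrane space, at 21.2 ± 0.906 against 19.0 ± 1.40 CPM (log2 change 0.15, adjusted p = 0.287, edgeR). Tomm6, a small subunit of the outer membrane import complex, was at 1.30 ± 0.284 against 1.76 ± 0.124 CPM (log2 change -0.44, adjusted p = 0.260, edgeR). With age in controls, the smallest p values were those of Bnip3l, a mitophagy receptor (81.0 ± 2.39 against 69.1 ± 1.39 CPM, log2 change 0.18, adjusted p = 0.1102, edgeR), Mfn2 (187 ± 7.47 against 203 ± 6.04 CPM, log2 change -0.17, adjusted p = 0.115, edgeR) and Spg7 (131 ± 7.21 against 145 ± 4.48 CPM, log2 change -0.19, adjusted p = 0.121, edgeR). Immp2l, an inner membrane peptidase, was at 6.20 ± 0.712 against 4.24 ± 0.968 CPM (log2 change 0.51, adjusted p = 0.174, edgeR), and the fission gene Dnm1l at 196 ± 13.8 against 171 ± 4.43 CPM (log2 change 0.15, adjusted p = 0.227, edgeR). Of the genes of tail-anchored protein insertion that work with Bag6, Asna1 had a log2 change of -0.17 with age (adjusted p = 0.303, edgeR) and Wrb of 0.14 (adjusted p = 0.275, edgeR). With NACET in old mice Get4, of the BAG6 complex, had a log2 change of -0.11 (adjusted p = 0.314, edgeR). Bag1, of the BAG family, had 0.13 there (adjusted p = 0.328, edgeR).

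Transcripts of the mitochondrial genome, 37 annotated genes, took 2.40% to 3.57% of gene counts per library. The share was 2.87% ± 0.238 in young controls, 3.24% ± 0.199 in young NACET, 2.97% ± 0.122 in old controls and 2.97% ± 0.318 in old NACET mice (SD, n = 4 for controls and n = 6 for NACET). It differed by 0.0986 percentage points with age (two-sided exact permutation test, p = 0.543, adjusted over 4 comparisons 0.724) and by -0.0040 with NACET in old mice (p = 0.962, exact permutation, adjusted 0.962). In young mice it was 0.365 points higher under NACET (p = 0.0286, exact permutation, adjusted 0.114), and the difference between old and young under NACET was -0.271 points (adjusted p = 0.212, exact permutation). Of these genes mt-Cytb and mt-Co1 gave 25.2% and 24.8% of the counts, while mt-Co2, mt-Co3, mt-Atp6, mt-Atp8 and mt-Nd4l had at most 11 counts in a library, so the share covers part of that genome.

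Hspa9 (chr18:35097068-35114011, mm9) has a pseudogene row in the counts, Hspa9-ps1, which was counted at 16.2 to 21.2 CPM. Its CPM was 0.100 ± 0.0055 times that of Hspa9 (SD, n = 20), with group means from 0.0975 to 0.103. Reads aligned to several places were set aside in counting, so reads that fit both equally would be in neither row. How the other reads were assigned between both was not tested. The pseudogenes of Hspe1 had at most 6 counts in a library. Afg3l2 (chr18:67564421-67608820, mm9) overlaps no other gene.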

How the data were processed

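Retinal polyA RNA of 20 C57BL/6J mice was measured, 1 library per mouse, and samples were grouped by their labels. The deposited files hold whole-number counts per gene, not normalized. The authors aligned single-end reads of TruSeq libraries to mm9 with TopHat 2.1.0 and counted them over exons with HTSeq 0.11.2, without strand; the annotation is not given in the sources used here. Gene totals were 17.7 to 31.1 M per library, and the row with no gene name (at most 0.0022% of counts) was left out.

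The 10 genes and the other lists were chosen with earlier results of these data known, and so were the libraries put in doubt. Differences were tested in R 4.3.3 with edgeR 4.0.16 (TMM, default filter, quasi-likelihood test, Benjamini-Hochberg adjustment over all genes), fitted per pair of groups and, for the interaction, on all 20 libraries. For NACET in young mice the design counted calls over all 10 genes, but only the 7 are reported as tested. Intervals are 95% t intervals of the fit. The code was tested on simulated data, with 200 genes changed. DESeq2 1.42.0, other scalings, filters, samples and covariates were tried as alternatives, and scaling by totals alone and leaving out old controls 2 and 4 were added after seeing the data. Gene positions are GENCODE on mm9, counted from 1, and promoter windows RefSeq on GRCm38.p6. Named genes were the 10, the 3 nearest profiles of 4 of them, and in each other list every called gene and the gene with the smallest p on each side. Of the latter, only the 5 with the smallest p in aging and with NACET in old mice, those of the BAG6 list in these comparisons and Htra3 are printed, which departs from the rule.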

Additional observations from a re-analysis of the deposited data

Results flagged for a closer look

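Over 44 groups of values, 5 held a library far from the others of its group by Dixon's criterion, where chance flags about 1 in 20 groups. In old NACET mice, replicate 6 was highest for Bag6, at 255.9 CPM against 229 to 239 CPM in the others, and for Clpp, at 40.6 CPM against 34.1 to 36.0 CPM. In old controls, replicate 4 was lowest for Lonp1, at 77.4 CPM against 87.2 to 89.2 CPM, and replicate 2 was lowest for Hspe1, at 15.7 CPM against 16.9 to 17.1 CPM. Young control replicate 3 was lowest for Hspe1, at 14.7 CPM against 16.8 to 17.3 CPM.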

How the results depend on the processing

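The count of called genes among those tested was 0 under each of 18 alternatives in aging, 22 for NACET in old mice, 21 each for NACET in the young (there counted over all 10 genes) and for age under NACET, and 29 for the interaction, with smallest adjusted p values of 0.309 to 0.714, 0.144 to 0.759, 0.722 to 1.00, 0.05003 to 0.276 and 0.525 to 1.00. Over all genes the number called moved much more: 53 to 710 in aging (234 as reported), 0 to 373 for NACET in old mice (90), 0 to 8 in the young, 422 to 1325 between ages under NACET (795) and 0 to 86 for the interaction; the cause was not tested. Replicate numbers did not pair the libraries (correlations of same-numbered deviations -0.157 to 0.123). With the replicate block none of the genes tested among the 10 was called, while the numbers over all genes were 163 (aging), 17 (old mice under NACET), 6 (young mice under NACET), 422 (age under NACET) and 0 (interaction). In that fit the log2 changes of Clpb, Bag6 and Htra1 with NACET in old mice were 0.22, 0.10 and 0.34. Clpb, Bag6 and Htra1 kept their sign in aging and with NACET in old mice under every alternative. They were selected for these signs on these libraries, so nothing is read from that. The sign of a log2 change turned in 12 of 180 values in aging, 12 of 220 for NACET in old mice, 28 of 210 in the young, 1 of 210 between ages under NACET and 16 of 290 for the interaction. Leaving out single libraries moved the mitochondrial share with NACET in old mice between -0.0745 and 0.109 points. Groups of 4 and 6 mice limit precision. For the genes with the fewest counts, Hspe1 and Htra2, counting error is not negligible beside the spread between libraries.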
